A study of Homo sapiens with 18 samples.

Results

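The stretch of chromosome 8 around MYC was followed in NB4, a cultured line derived from acute promyelocytic leukemia (APL), left untreated or exposed to 10 µM maltonis, a synthetic maltol-derived hydroxypyrone, for 24 h. Chromatin immunoprecipitation followed by sequencing (ChIP-seq) had been performed for H3K4me3, H3K27ac and H3K9me3, with 3 libraries per condition and mark. Every enriched interval (peak) of the 18 deposited lists that overlapped chr8:127500000-131500000 (hg19) was taken, which gave 1326 of 501863 peaks. The window was read in 4 segments, namely the sequence upstream of MYC, the MYC gene (128748315 to 128753680) with 5 kb on either side, the PVT1 stretch from there to 129.1 Mb, and the distal stretch beyond it. Overlapping peaks of the 6 libraries of a mark were joined into merged regions, and 56 of 27037 H3K4me3, 46 of 36947 H3K27ac and 52 of 46996 H3K9me3 regions lay in the window. All libraries come from 1 cell line. The study describes its replicates as biological triplicates, but how the cultures were separated is not given in the sources used here, and p-values measure the spread between these libraries.

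MYC encodes a transcription factor that drives growth and proliferation, and it is frequently deregulated in leukemia. PVT1 is the long non-coding RNA gene next to it. In blood cells MYC is known to be controlled by a cluster of enhancers far downstream, beyond PVT1. H3K4me3 marks mainly active promoters, H3K27ac active promoters and enhancers, and H3K9me3 is a repressive mark of heterochromatin. In the RefSeq gene order (GRCh38.p14, used for names only) the coding gene before MYC is POU5F1B, and PVT1 is followed by CCDC26, a long non-coding RNA gene, and then by GSDMC, CYRIB and ASAP1.

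H3K27ac was concentrated in 2 blocks, one over MYC and PVT1 and one far downstream. In both conditions H3K9me3 lay over MYC, over part of the PVT1 stretch and over most H3K27ac bases of the distal stretch. The densest H3K27ac region of the distal stretch, singled out after its values were seen, was chr8:130510001-130633200, which begins 1762 kb downstream of the MYC start. It held 35726, 37472 and 36879 reads in untreated replicates 1 to 3 and 33356, 38358 and 36248 reads in maltonis replicates 1 to 3. By reads its peak ranked between place 1 and place 3 of each list, and by reads per kb it stood between the 99.1 and the 99.8 percentile of its list. Its borders differed by at most 1 or 2 windows of 200 bp, since it began at 130510001 or 130510201 and ended between 130632800 and 130633200. The adjoining region chr8:130633801-130710800 ranked between place 7 and place 18. Between the blocks, from 129164000 to 130271401, a single H3K27ac region was called, and in untreated libraries only.

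**Figure D1:**
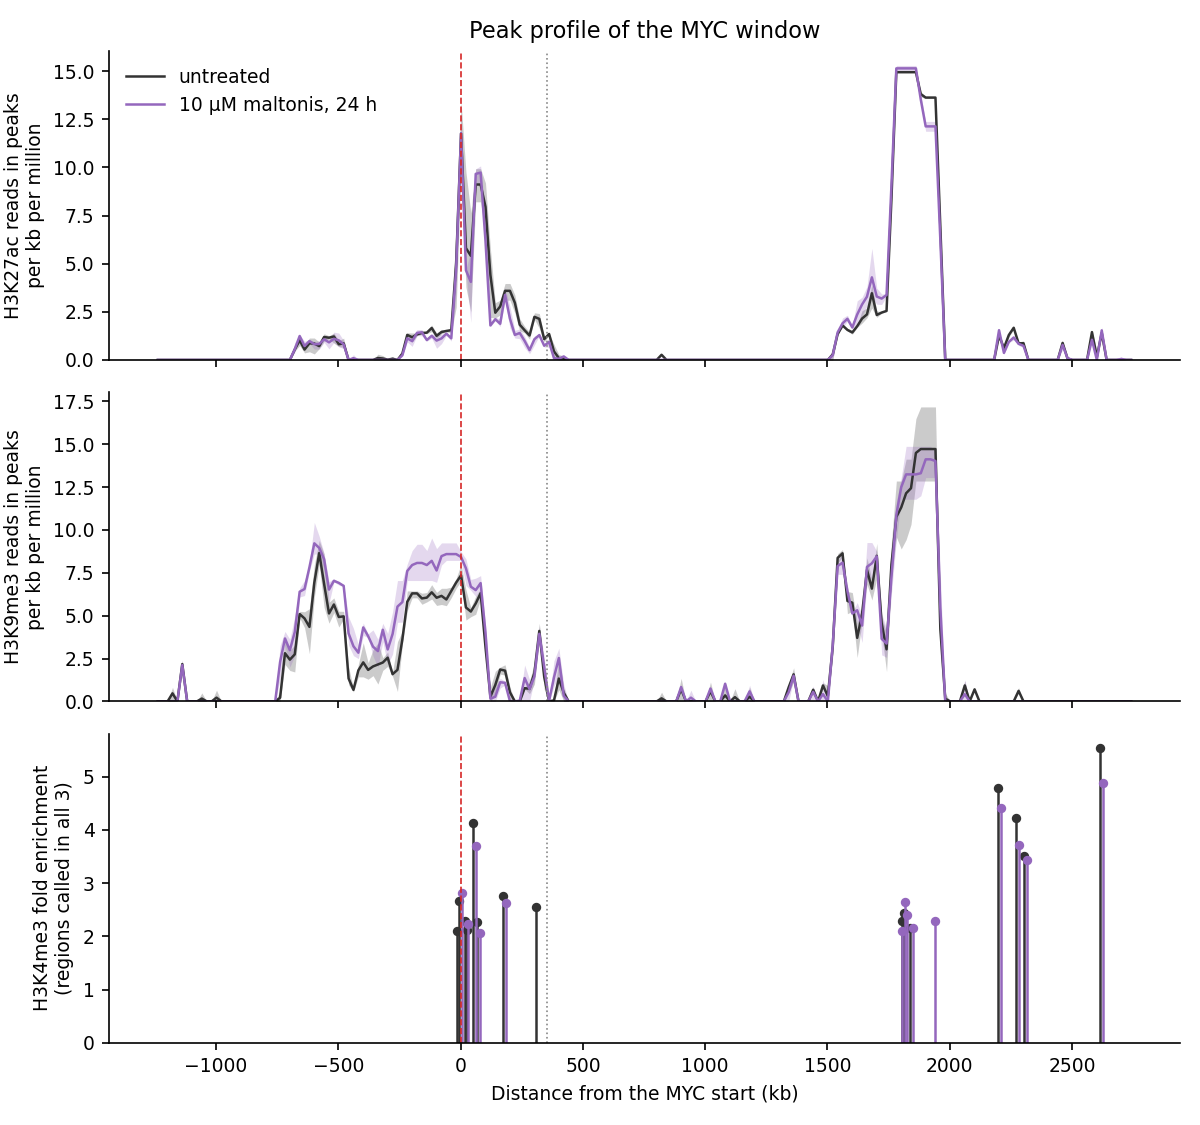
Profile of the peaks by distance from the MYC start (kb). Upper and middle panels give H3K27ac and H3K9me3 reads in peaks per kb and per 1000000 reads in peaks, in steps of 20 kb, with reads spread evenly inside a peak; lines are means of 3 libraries and shading the lowest to highest library. The lower panel gives the mean H3K4me3 fold enrichment of regions called in all 3 libraries of a condition, drawn at the region's nearest edge and moved 6 kb apart. The dashed line is the MYC start and the dotted line the beginning of the distal stretch. H3K27ac was highest, at 15.0 in untreated and 15.1 in maltonis libraries, on a plateau from about 1782 to 1862 kb downstream of MYC.

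The overlap of H3K27ac and H3K9me3 was measured on bases called in at least 2 of 3 libraries of a condition. In untreated cells 74.1% of the H3K27ac bases of the window lay under H3K9me3, against 10.2% over all chromosomes. In maltonis cells the shares were 77.2% and 11.9%. Upstream of MYC the untreated share was 98.1%, over MYC all bases were shared, in the PVT1 stretch 40.3% and in the distal stretch 78.6%. The H3K9me3 region chr8:130510001-130710200 began in the same 200 bp window as the distal H3K27ac region and ended within its neighbour. Its largest peak ranked between place 9 and place 20 by reads. These shares and ranks are descriptions of bases and lists, without a test. The lists give reads without an input control, so densities are not relative to input, and the DNA copy number of the window in these cells was not analysed here, so neither is accounted for in the ranks, percentiles and shares above. The enhancer cluster known from blood cells was not placed on hg19 here, and the distal block is therefore named by its position only.

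The H3K4me3 peak over the MYC start was called in all 6 libraries and was shorter in every maltonis library. Its length was 3875, 3836 and 3865 bp in untreated replicates 1 to 3 and 3592, 3617 and 3648 bp in maltonis replicates 1 to 3 (3859 ± 20.3 against 3619 ± 28.1 bp, SD, n = 3 each). The conditions did not overlap. The difference lay on the gene body side, where the peak ended 3295, 3303 and 3302 bp past the MYC start in untreated cells and 3101, 3073 and 3126 bp past it in maltonis cells, a mean difference of -200.0 bp (exact two-sided permutation test, p = 0.1, the smallest that 3 against 3 libraries allow). On the upstream side the peak began at -579, -532 and -562 bp from the MYC start in untreated libraries and at -490, -543 and -521 bp in maltonis libraries, and those values overlapped. On the log2 scale the called length differed by -0.09 (limma, FDR = 0.0128), above the FDR limit of 0.01 used here and far under the fold limit of 0.58. With each library centred on its median length it differed by -0.32 (FDR = 0.00153). Genome-wide, 3.99% of the H3K4me3 regions called in all 6 libraries were shorter in every maltonis library than in every untreated one and 54.8% were longer. Of the 12 such regions of the window, MYC was the only shorter one and 5 were longer.

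**Figure D2:**
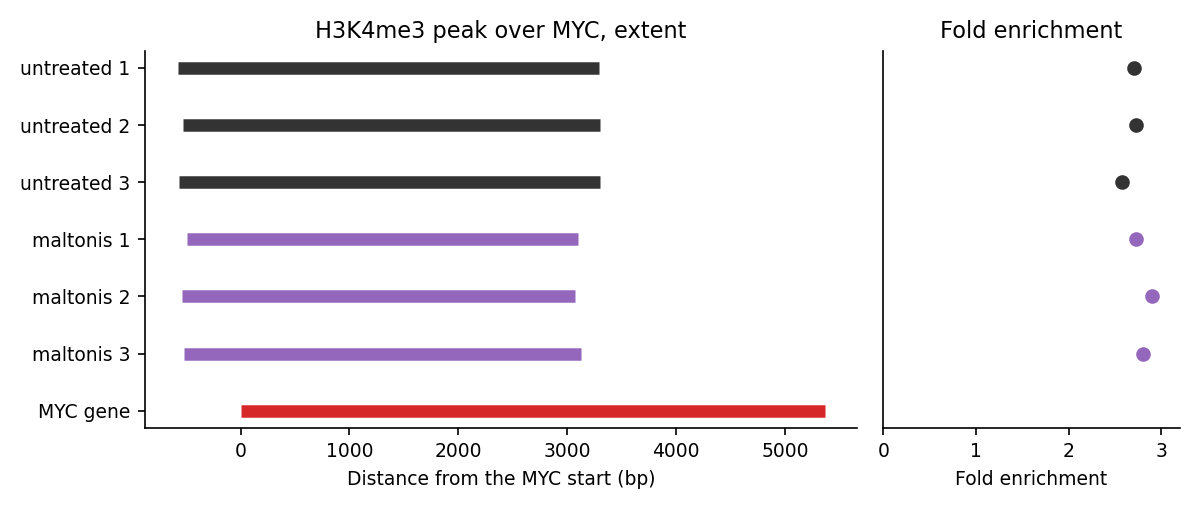
H3K4me3 peak over MYC in each library. Left, extent of the peak in bp from the MYC start, with the gene drawn in red; right, fold enrichment of the same peak. The 3 untreated peaks end 3295 to 3303 bp past the start and the 3 maltonis peaks 3073 to 3126 bp past it.

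The fold enrichment of the MYC peak was not lower in maltonis libraries. It refers to the called interval, which was shorter there. By reads, which the H3K4me3 lists do not hold, the paper reports a slight but significant decrease at this promoter. Relative to the background that the caller estimates locally, fold enrichment was 2.71, 2.73 and 2.58 in untreated replicates 1 to 3. In maltonis replicates 1 to 3 it was 2.73, 2.90 and 2.81. Untreated replicate 2 (2.727) and maltonis replicate 1 (2.733) were nearly equal, so the conditions were only just without overlap. The means differed by 0.140 (exact permutation test, p = 0.1). Over the 12470 regions tested, the library median of log2 fold enrichment moved in the other way, from 2.22 ± 0.0187 to 2.06 ± 0.0289 (SD, n = 3). After centring each library on its median the MYC peak was therefore 0.23 ± 0.0429 (SE) higher on the log2 scale (limma, FDR = 0.00866). Without centring the difference was 0.07 (FDR = 0.26), and it did not reach the fold limit under either scaling. The FDR lay between 0.0244 and 0.0321 when any 1 library was left out. The deposited −log10 q of the peak was 111.0, 99.8 and 87.0 in untreated and 64.2, 94.0 and 73.7 in maltonis libraries, with overlap. Within its own list the MYC peak stood at the 97.9 to 99.1 percentile of width and the 94.9 to 97.6 percentile of −log10 q. By fold enrichment it stood at the 7.94 to 19.6 percentile.

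Of the 56 H3K4me3 regions of the window, 30 were called in a single library and 12 in all 6. None of these 12 passed the test of fold enrichment (limma, FDR of at most 0.01 and log2 change of at least 0.58), 2 of them had an unadjusted p under 0.05, and 0.93% of all tested regions passed. The median change of the 12 was 0.10 on the log2 scale, against 0.02 over all regions tested. At an FDR of at most 0.01 alone, MYC and chr8:130558156-130560958 stood higher, 2 of 12 against 4.5% of all tested regions. The latter lies inside the distal H3K27ac block, 1810 kb from MYC. Its fold enrichment was 2.32, 2.14 and 2.44 in untreated and 2.68, 2.65 and 2.62 in maltonis libraries (log2 change 0.37 ± 0.0649 SE, FDR = 0.00729), and the conditions did not overlap. Its FDR was between 0.0201 and 0.027 when any library other than untreated replicate 3 was left out.

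In the PVT1 stretch the strongest H3K4me3 peak, chr8:128806402-128809033, lay 58.1 kb downstream of the MYC start. Unlike the MYC peak, it was longer in every maltonis library, at 2587, 2586 and 2571 bp, than in any untreated one, at 2164, 2192 and 2199 bp (log2 change 0.24, limma, FDR = 0.00134), a difference that was 0.0097 (FDR = 0.834) after centring on the library median length. Its fold enrichment was 4.33, 4.09 and 4.01 in untreated and 3.64, 3.77 and 3.67 in maltonis libraries, without overlap. After centring the log2 difference was -0.01 ± 0.0425 (SE). The deposited −log10 q was 145.3, 117.1 and 115.3 in untreated and 60.8, 78.0 and 65.9 in maltonis libraries, also without overlap. No H3K4me3 region of the window passed both limits for called length, while 5 of 12 had an unadjusted p under 0.05 and 4.13% of all regions passed.

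One H3K4me3 region was called in all untreated and no maltonis libraries, chr8:128738043-128739868, whose end lay at -8.45 kb from the MYC start. Its peaks were weak, with a fold enrichment of 2.07, 2.24 and 2.01 and a −log10 q of 1.61, 1.75 and 1.11. Genome-wide 1.66% of H3K4me3 regions were exclusive to untreated libraries. The opposite case, chr8:130680646-130682514 inside the distal block, was called in all 3 maltonis libraries only (fold enrichment 2.23, 2.36 and 2.28), against 0.836% genome-wide. There was thus 1 such region in each direction among 56.

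H3K27ac covered MYC and its flanks entirely in all 6 libraries. The peak that held the gene had 237, 279 and 196 reads per kb in untreated replicates 1 to 3 and 217, 272 and 211 in maltonis replicates 1 to 3, while the median peak of a list had 48.7 to 54.7. In this density the conditions overlapped (exact permutation test, p = 0.9). The lowest value, 196, belonged to the widest peak, of 43.8 kb. The peak held 7172, 7196 and 8597 reads in untreated and 5634, 6245 and 6066 reads in maltonis libraries. These reads, not normalised, were lower in every maltonis library (exact permutation test, p = 0.1). The width of the peak was 33.3 ± 9.38 kb in untreated and 25.9 ± 2.90 kb in maltonis libraries (SD, n = 3 each), with overlap. The merged region around it, chr8:128696001-128781200, held 9833, 10020 and 9864 reads in untreated and 8208, 9455 and 8849 reads in maltonis libraries. After normalisation this was a log2 change of -0.12 ± 0.0189 (SE, edgeR, FDR = 0.000315), well inside the fold limit. With the called length as an offset the change was -0.0045 (FDR = 0.935). The length called there was 79600 to 82600 bp in untreated and 73600 to 76400 bp in maltonis libraries.

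Going downstream through PVT1, the log2 change of summed H3K27ac reads was more negative in each next region, while with the called length as an offset it lay between -0.10 and -0.0045. The region chr8:128781601-129035600 held 21421, 22579 and 22611 reads in untreated and 15561, 18997 and 17508 reads in maltonis libraries (log2 change -0.31 ± 0.0224 SE, edgeR, FDR = 2.03e-06), under the fold limit, and -0.10 with the offset (FDR = 0.0383). The next one, chr8:129037801-129125800, which spans the end of the PVT1 stretch, passed the test. It held 2678, 3064 and 2908 reads in untreated and 1464, 1806 and 1565 reads in maltonis libraries, a fall to 0.576 of the untreated level (log2 change -0.80 ± 0.0427 SE, FDR = 3.59e-07). The length called in it fell as well, from 69800, 75000 and 71200 bp to 45000, 47800 and 40000 bp (log2 change -0.71, limma, FDR = 0.00275). This call of length was lost without any untreated replicate (FDR of 0.0198, 0.0233 and 0.0236) or without maltonis replicate 1 (FDR = 0.0104), and with each library centred on its median length (-0.43, FDR = 0.0124). The same centring turned the called lengths of the regions over MYC and over most of PVT1 from -0.12 and -0.22 to 0.16 and 0.06 on the log2 scale. Without centring, chr8:129037801-129125800 was the only H3K27ac region of the window to pass the test of length, against 3.51% of all regions. Per kb called it had 38.4, 40.9 and 40.8 reads in untreated and 32.5, 37.8 and 39.1 reads in maltonis libraries, which overlap, and with the called length as an offset the change was -0.09 (FDR = 0.445). The lower reads went with a smaller called length, which itself depends on the reads, so they were not told apart.

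A further H3K27ac region passed in the distal stretch, chr8:130968801-130973200, with 237, 228 and 274 reads in untreated and 153, 119 and 147 in maltonis libraries (log2 change -0.76 ± 0.174 SE, edgeR, FDR = 0.00328). The call was lost without untreated replicate 1 (FDR = 0.0105), untreated replicate 3 (FDR = 0.0156) or maltonis replicate 2 (FDR = 0.0102), and with the length offset (-0.26, FDR = 0.252). Thus 2 of 30 tested H3K27ac regions of the window were called lower, against 19.2% of all tested regions. None was called higher by edgeR or DESeq2, against 8.18%, while 3 were higher at an unadjusted p under 0.05. At the FDR limit alone 6 of 30 were lower and 3 higher, against 27.3% and 28.9%. The median log2 change of the 30 regions was -0.13, and over all regions it was -0.01.

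Within the distal block the changes of H3K27ac went in both directions and were small. In chr8:130345401-130507800, just before the densest region, reads were 7569, 7858 and 7923 in untreated and 8981, 10852 and 10247 in maltonis libraries. This 1.33-fold difference (log2 change 0.41 ± 0.0256 SE, edgeR, FDR = 9.24e-07) was below the fold limit and was as large with the length offset (0.39, FDR = 0.000515). The densest region itself differed by 0.02 ± 0.0119 (SE, FDR = 0.26). Its neighbour chr8:130633801-130710800 held 20085, 21185 and 20839 reads in untreated and 16616, 18954 and 18143 reads in maltonis libraries (log2 change -0.17 ± 0.0153 SE, FDR = 1.03e-05), again with a similar value under the offset (-0.17, FDR = 0.00204). Called length in these 3 regions, without centring, differed by at most 0.02 on the log2 scale.

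**Figure D3:**
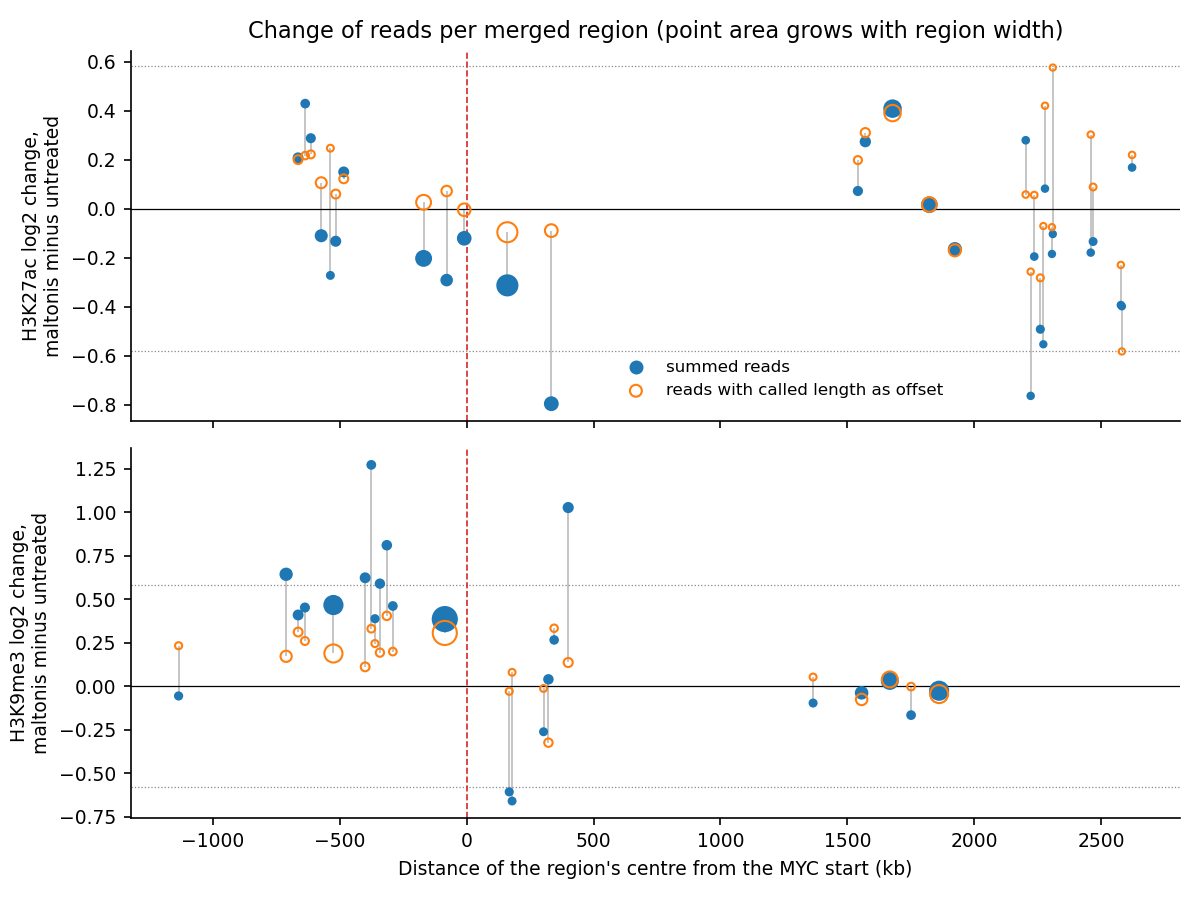
Log2 change of reads (maltonis minus untreated) of the tested merged regions by distance of their centre from the MYC start (kb). Filled points use summed reads, open points add the called length as an offset, grey lines join both values of a region, and dotted lines mark the fold limit of 0.58. The H3K27ac region at the end of the PVT1 stretch moves from -0.80 to -0.09 with the offset, while the H3K9me3 region over MYC moves from 0.39 to 0.31.

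H3K27ac was called in all untreated and no maltonis libraries at chr8:129566801-129570800, between both blocks, with 105, 104 and 112 reads, and at chr8:130994201-130998600 with 83, 79 and 108 reads. These were 2 of 46 regions, against 6.04% genome-wide. No region was exclusive to maltonis libraries, against 1.65%.

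Normalised H3K9me3 reads were higher in maltonis libraries upstream of MYC and in the region that runs over it. No difference passed the test in the distal block. As for H3K27ac, reads were scaled within each library, so they are relative shares and not total amounts. By mass spectrometry the paper reports less H3K9me3 and more H3K27ac in bulk after maltonis. At the MYC locus it reports no change of either mark, while the merged regions tested here are far wider than the gene. In the region that contains MYC, chr8:128473801-128850200, reads were 7156, 6942 and 6937 in untreated and 8777, 8688 and 7863 in maltonis libraries (1.31-fold, log2 change 0.39 ± 0.0416 SE, edgeR, FDR = 0.00186). The conditions did not overlap, but the fold limit was not reached. The change was 0.31 with the length offset (FDR = 0.000609), and the FDR rose to 0.0122, 0.0123 and 0.0152 without untreated replicate 2, untreated replicate 3 or maltonis replicate 2. The length called in the region was 352400, 340600 and 339600 bp in untreated and 367400, 364200 and 360200 bp in maltonis libraries (log2 change 0.08, limma, FDR = 0.306). It was split into 15, 16 and 14 peaks in untreated and 7, 9 and 13 in maltonis libraries. The peak that held MYC was 16.0, 66.4 and 56.0 kb wide in untreated replicates 1 to 3. In maltonis replicates 1 to 3 it was 119.8, 121.2 and 114.2 kb wide (exact permutation test, p = 0.1). Its reads per kb, however, were 31.4, 23.2 and 24.1 in untreated and 26.8, 25.8 and 24.0 in maltonis libraries, which overlap. Reads assigned to MYC with its 5 kb flanks in proportion to length were 123 ± 24.1 against 129 ± 4.17 RPM (reads per 1000000 reads in peaks, SD, n = 3 each, exact permutation test, p = 0.7). This value follows the density of whole peaks of unequal width. It is not a count of reads at the gene, which the lists do not give.

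Farther upstream, chr8:128121801-128324400 held 3203, 3112 and 3387 H3K9me3 reads in untreated and 4359, 4468 and 3566 reads in maltonis libraries (log2 change 0.47 ± 0.0437 SE, edgeR, FDR = 0.00107), below the fold limit, and the change was 0.19 with the length offset (FDR = 0.145). One region passed the test, chr8:128363801-128380800, with 105, 84 and 87 reads in untreated and 203, 242 and 173 reads in maltonis libraries (2.41-fold, log2 change 1.27 ± 0.185 SE, FDR = 0.0071). The length called in it was 6200, 6800 and 6200 bp in untreated and 11200, 15000 and 10800 bp in maltonis libraries. With that length as an offset the change was 0.33 (FDR = 0.519). The call was lost whichever of the 6 libraries was left out (FDR between 0.0222 and 0.0434), with the log2 change between 1.17 and 1.40. This was 1 of 23 tested regions, against 0.253% genome-wide, and 3 of 23 were higher at the FDR limit alone, against 0.401%. DESeq2 called 2. All 3 lie upstream of or over MYC, where 11 of 12 tested regions had a positive change. Their median was 0.46, against a median of -0.0024 over all regions tested. The genome-wide shares are taken over regions of all sizes, while the region over MYC and chr8:128121801-128324400 are wide and hold many reads. Size was not matched.

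The region over MYC reaches into the PVT1 stretch. Among H3K9me3 regions lying mostly in that stretch, the one with the most bases called, chr8:129058001-129082800, held 223, 322 and 284 reads in untreated and 317, 219 and 248 reads in maltonis libraries (log2 change 0.04 ± 0.162 SE). In the distal block chr8:130510001-130710200 held 8292, 8564 and 8510 reads in untreated and 8155, 7765 and 7049 reads in maltonis libraries. After normalisation the difference was -0.03 ± 0.0329 (SE, edgeR, FDR = 0.793). The called length there was between 190000 and 198600 bp in both conditions. H3K9me3 was exclusive to untreated libraries at chr8:130841201-130845000 (40, 50 and 48 reads) and chr8:131020601-131023800 (31, 36 and 54 reads), 2 of 52 regions against 2.32%, and nowhere exclusive to maltonis libraries, against 0.781%.

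Summed over segments, H3K27ac covered 308, 317 and 327 kb of the PVT1 stretch in untreated and 251, 279 and 260 kb in maltonis libraries. The mean fell by 54.2 kb without overlap, and the same stretch was split into more peaks, 21, 18 and 15 against 28, 30 and 37. Coverage was also lower over all chromosomes, where bases called in at least 2 of 3 libraries went from 218969 to 174108 kb, against 328 to 268 kb in the PVT1 stretch and 500.2 to 478.0 kb in the distal stretch. Reads in the PVT1 stretch went from 1359 ± 89.1 to 1069 ± 32.9 RPM (SD, n = 3 each), and reads per kb covered from 85.4 ± 4.0 to 78.5 ± 4.0. Over all peaks of a library reads per kb were 88.5 to 89.3 in untreated and 97.2 to 114 in maltonis libraries. Divided by that value of the same library, the density of the PVT1 stretch went from 0.962 ± 0.0477 to 0.731 ± 0.0256 without overlap, and in the distal stretch the same ratio went from 1.62 ± 0.0235 to 1.37 ± 0.0288. In the distal stretch coverage was 503 ± 8.73 and 477 ± 8.11 kb, again without overlap, while reads were 3620 ± 10.5 and 3629 ± 44.0 RPM and overlapped. All these differences without overlap have the smallest possible p of 0.1 (exact permutation test).

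H3K9me3 covered 562, 541 and 553 kb upstream of MYC in untreated and 647, 652 and 619 kb in maltonis libraries, and reads went from 3234 ± 132 to 4549 ± 201 RPM (SD, n = 3 each, exact permutation test, p = 0.1). Reads per kb covered were 19.1 ± 0.203 and 21.2 ± 0.985 there. In the PVT1 stretch H3K9me3 reads were 809 ± 27.9 and 891 ± 11.6 RPM without overlap, while coverage overlapped. Distal coverage was 441 ± 7.0 and 444 ± 4.89 kb and overlapped. H3K4me3 covered 35.8 ± 3.11 and 36.3 ± 4.12 kb of the whole window (exact permutation test, p = 0.9), and of its segments only MYC was without overlap.

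**Figure D4:**
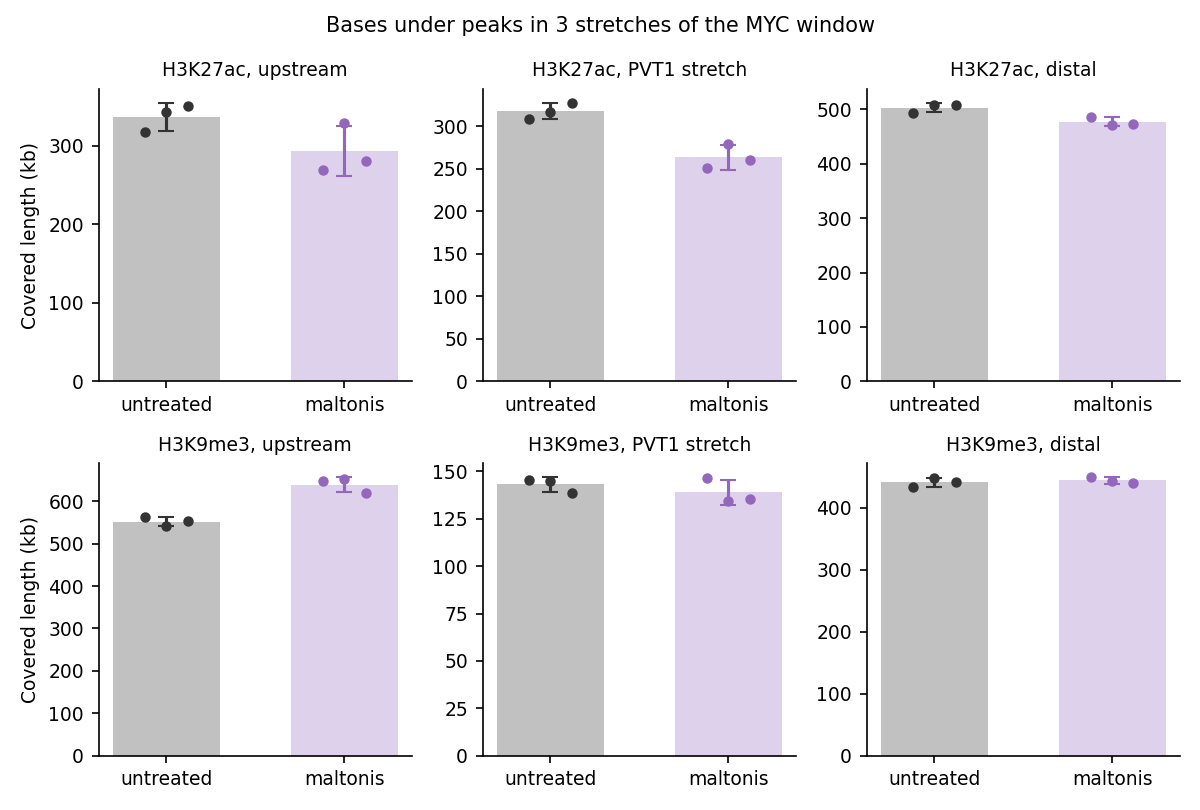
Length under peaks (kb) in the segments of the window. Bars are means, error bars SD of 3 libraries and points the libraries, and each axis starts at 0. H3K27ac of the PVT1 stretch lies at 308 to 327 kb in untreated and 251 to 279 kb in maltonis libraries, and H3K9me3 upstream of MYC at 541 to 562 kb and 619 to 652 kb.

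Bins of 100 kb placed these differences along the window. H3K27ac coverage was lower in every maltonis library than in every untreated one in 9 of 24 bins with any peak, against 40.2% genome-wide, a share close to the background. The 9 included the bin with MYC and all 3 bins of the PVT1 stretch. It was higher in 1 bin, that before the densest distal region, against 4.89%. H3K9me3 coverage was higher in 5 of 30 bins, against 4.58%, and all 5 adjoin each other from 128000001 to 128500000, upstream of MYC. It was lower in 4, against 9.48%. H3K4me3 coverage was lower in 2 of 19 bins, that of MYC included, against 5.82%, and higher in 2, against 27.9%. Of the H3K27ac regions called in all libraries 9 of 30 were shorter in every maltonis library, against 28.2%, and none was longer, against 3.84%.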

How the data were processed

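The window, its segments and the regions described were chosen with earlier results of these data known. Per the submitters' processing notes, reads were handled with BWA, SAMtools, MACS2 and SICER on hg19, and versions are not given in the sources used here. The authors deposited 1 peak list per library. Deposited H3K4me3 peaks carry a fold enrichment (a ratio to the caller's local background), −log10 p and q values and a score. H3K27ac and H3K9me3 peaks carry a deposited read count, not normalised and referring to the interval called in that library, and an island score. Reads in peaks ranged from 17974940 to 20773316 (H3K27ac) and from 2595814 to 3366296 (H3K9me3) per library. H3K4me3 lists hold no reads, so their depth is unknown.

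Peaks of the 6 libraries of a mark sharing at least 1 bp were merged. Regions called in all 6 libraries were tested genome-wide, summed reads with the edgeR 4.0.16 quasi-likelihood test after TMM normalisation, and log2 of the length-weighted fold enrichment (centred on the library median) and of the called length with limma 3.58.1 (R 4.3.3). SEs of edgeR were derived from its F statistic. Calls needed a Benjamini-Hochberg FDR of at most 0.01 and an absolute log2 change of at least 0.58. For segments, an exact permutation test (two-sided, 20 assignments) was used. Reads of a peak crossing a segment border were divided in proportion to length. Named regions were those over MYC, the region with the most bases called per segment and mark, and those called or exclusive. Others were chosen after their values were seen, as were the overlap of marks and the ranks. The scripts were tested on simulated data. No annotation of hg19 was used, so no gene other than MYC and PVT1 was placed. Alternatives included DESeq2 1.42.0.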

Additional observations from a re-analysis of the deposited data

How the results depend on the processing

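Of 320 recomputed counts and segment differences 278 kept their outcome. For counts this meant a value equal or close to the main one. For segments it meant the same state of overlap between conditions, whatever the sign where the conditions overlapped. Of 295 recomputed values of single regions 264 kept their direction and their side of the call limits. With the called length as an offset 1 H3K27ac region (chr8:131328401-131332200) was called lower in place of 2 and 0 H3K9me3 regions higher in place of 1. The offset removes differences that go with length. Called length itself depends on the reads of each library, so the offset cannot separate a change of signal from a change of length. The count of H3K9me3 regions called higher was 2 with DESeq2, 0 with peaks within 1000 bp merged and 0 with the replicate block. Replicate numbers share no batch in the labels, and deviations of same-numbered libraries correlated by less than 0.1. No pairing by number was seen, but this cannot exclude that same-numbered cultures were handled in parallel. The replicate block also took the 1 H3K27ac region called shorter to 0, as did centring on the library median. Leaving out 1 library at a time gave 1 to 3 H3K27ac regions called lower, 0 H3K9me3 regions called higher and 0 to 1 H3K27ac regions called shorter; with fewer libraries the tests also have less power.

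In kb covered, maltonis minus untreated, the strongest 75% of peaks gave -3.83 for H3K4me3 in the PVT1 stretch and 2.75 in the distal stretch, and equal numbers of peaks gave 7.37 for distal H3K4me3 and 8.33 for distal H3K9me3, all newly without overlap; the cause was not tested. Leaving out 1 library gave 0.908 to 3.65 for distal H3K4me3, -62.1 to -32.3 for upstream H3K27ac and -8.2 to -2.0 for H3K9me3 of the PVT1 stretch. In RPM it gave -68.2 to -21.4 for upstream H3K27ac, -1.08 to 20.3 for H3K9me3 over MYC and -117 to 69.1 for distal H3K9me3, and the strongest 75% of peaks gave 94.5 for H3K9me3 of the PVT1 stretch, with overlap. Bins of 50 kb gave 1 lower bin for H3K4me3, 14 lower for H3K27ac and 9 higher and 3 lower for H3K9me3, and the cause was not tested. Equal numbers of peaks gave 1 lower H3K4me3 and 2 lower H3K9me3 bins, and left 0 H3K4me3, 1 H3K27ac and 0 H3K9me3 regions exclusive to untreated libraries.

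Among regions under the call limits, signs turned as follows. The H3K27ac region at 128514601 went from -0.20 to 0.026 with the offset. The H3K9me3 region at 129058001 went from 0.04 to -0.32 with it and to between -0.0823 and 0.172 when 1 library was left out, below 0 without untreated replicate 1, maltonis replicate 1 (-0.0616) or maltonis replicate 3 (-0.0141). The H3K4me3 region at 128806402 went from -0.01 to 0.0083 at a −log10 q of at least 10 and to between -0.0236 and 0.0198 when 1 library was left out, above 0 without untreated replicate 1. Called lengths centred on the library median were -0.18 for H3K4me3 at 130558156 and 0.0455, 0.161 and 0.0602 for H3K27ac at 128514601, 128696001 and 128781601. Reads in peaks are few for H3K9me3, so small H3K9me3 regions are measured least precisely.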
